A study of Mus musculus with 14 samples.

Results

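The genes described here are the translation initiation factors of mouse germinal centre (GC) B cells, taken as every gene of the UMI count table whose symbol starts with Eif followed by a number, with symbols containing -ps left out. The rule found 49 of 9969 genes, and 46 of them passed the filter on low counts. Eif2s2, Eif4g2 and Eif5a2 did not pass, with 57, 30 and 33 unique molecular identifiers (UMIs, tags that mark single mRNA molecules) over all libraries. The rule reads gene symbols and no measured value, although earlier results of these data were known when members and lists were chosen. Eif2s1, Eif2s3y, Eif3j and Eif5b had no row in the UMI table and were not analysed here, apart from the reads of Eif2s1 given at the end.

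GC B cells were sorted into light zone (LZ) and dark zone (DZ) cells from popliteal lymph nodes of C57BL/6 mice 14 days after immunization with the hapten-carrier conjugate NP-KLH, and their mRNA was sequenced in pools with a variation of MARS-seq. Every mouse was a chimera of 50% SykY317F and 50% wild type (WT) cells, so cells of both genotypes came from immunized chimeric hosts, and SykY317F is a form of the antigen receptor kinase Syk with a tyrosine replaced by phenylalanine. The groups were SykY317F LZ (n = 3), SykY317F DZ (n = 3), WT LZ (n = 4) and WT DZ (n = 4), 14 libraries in all. Neither the age of the mice nor the way in which the genotypes were told apart during sorting is given in the sources used here. Nothing in the labels says whether replicates are different mice, so the p-values measure the spread between libraries.

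Initiation factors bring the initiator tRNA, the small ribosomal subunit and the capped mRNA together and set where and how often translation starts. eIF2 carries the initiator tRNA and is recharged by the exchange factor eIF2B. Kinases that phosphorylate eIF2 under stress block this exchange, lower general translation and favour a few mRNAs such as that of the transcription factor Atf4, a response known as the integrated stress response. eIF4E binds the cap, eIF4G is the scaffold that joins it to the helicase eIF4A and to eIF3, and the eIF4E binding proteins, which mTORC1 inactivates, hold eIF4E back. In germinal centres, LZ B cells receive antigen and T cell signals that drive growth through Myc and mTORC1, and DZ B cells proliferate and hypermutate their antibody genes.

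UMI totals were 149641 to 379125 per library in SykY317F LZ, 381954 to 1413310 in SykY317F DZ, 499443 to 1600902 in WT LZ and 747948 to 1767898 in WT DZ. Levels are given as CPM, that is UMIs scaled to a common total with edgeR's TMM factors. A count of 3 UMIs came to between 8.95 and 18.8 CPM in SykY317F LZ, so differences in weakly detected members were not detectable at this depth. Of 12 GC B cell markers, the 11 with a row were detected in each group. The 6 LZ markers were on the higher side in LZ averaged over the genotypes, and Cd83 and Cd40 passed the test there. Of the 5 DZ markers tested, 4 were on the lower side and 2 passed. Within the genotypes, the 6 LZ markers were on the higher side in LZ in both. Of the 5 DZ markers, 3 were on the lower and 2 on the higher side in SykY317F, and 4 were on the lower side in WT.

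The initiation factor genes together held 0.862% to 1.22% of the UMIs of a library. Their summed level was 9669 ± 662 CPM in SykY317F LZ and 10139 ± 590 CPM in SykY317F DZ, against 10656 ± 756 CPM in WT LZ and 11488 ± 1299 CPM in WT DZ (SD, n = 3, 3, 4 and 4). The difference between the zones was therefore smaller than or about the size of the spread between libraries in each genotype.

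Averaged over the genotypes, 1 of the 46 members tested differed between the zones, and it was lower in LZ (edgeR, adjusted p under 0.05). Over all 7999 genes tested the same rule called 1.43%, of which 0.875% were lower and 0.55% higher, so the share among the members was near the background. At an unadjusted p under 0.05 there were 5 members, against 14.3% of all genes. The median log2 fold change of the members was -0.18, with 35 on the lower and 11 on the higher side in LZ. The median over all genes tested was -0.03, with 46.3% of them above 0.

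**Figure D1:**
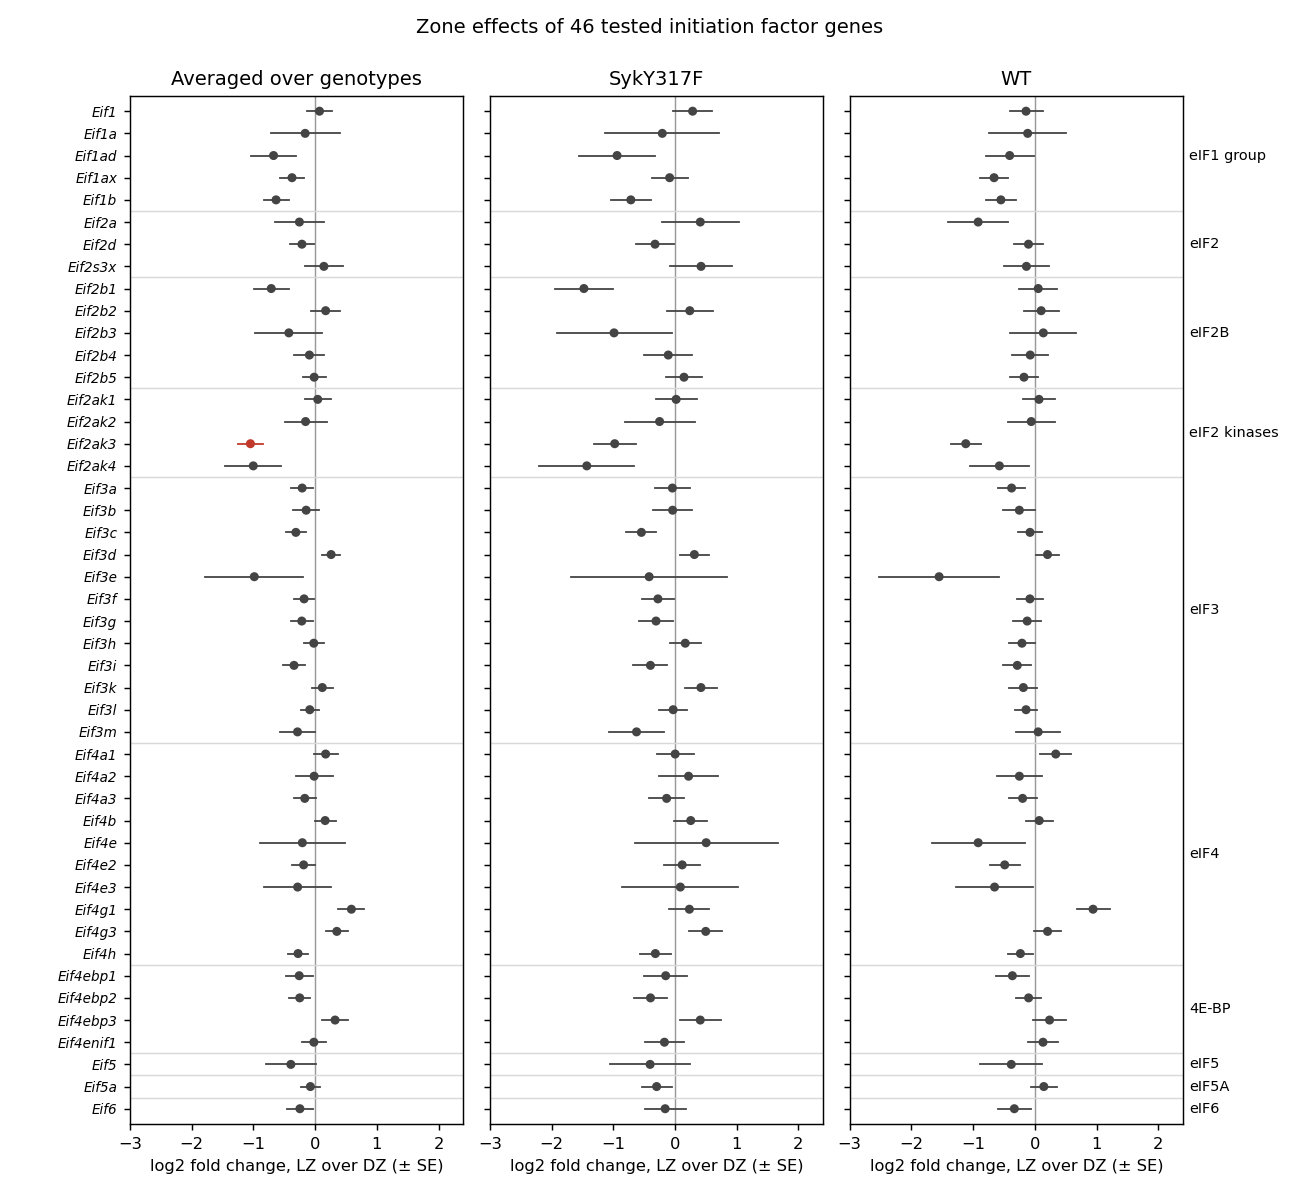
Log2 fold change of LZ over DZ for each of the 46 members tested, with its standard error, averaged over the genotypes (left), in SykY317F (middle) and in WT (right), ordered by the role of the factor. The red point is Eif2ak3 at -1.05, the 1 member that passed the test, and Eif4g1 in WT lies farthest to the right at 0.94.

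The member that differed was Eif2ak3 (chromosome 6, 70844515 to 70905245, GRCm38), which encodes PERK, the eIF2 kinase of the endoplasmic reticulum that is switched on by unfolded proteins. Its level was 44.8, 39.5 and 50.2 CPM in the 3 SykY317F LZ libraries, against 103.8, 85.4 and 71.9 CPM in the 3 SykY317F DZ libraries. In WT it was 53.8, 32.6, 49.9 and 71.6 CPM in LZ, against 107.4, 117.1, 134.4 and 98.0 CPM in DZ. Every LZ library was below every DZ library of its genotype, and among all genes such a gap in this direction was found for 8.5% in SykY317F and 2.88% in WT. Averaged over the genotypes, LZ stood at 48.3% of DZ, a log2 fold change of -1.05 ± 0.21 (SE; edgeR adjusted p = 0.0148).

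The zone effect on Eif2ak3 was -0.98 ± 0.34 on the log2 scale in SykY317F and -1.12 ± 0.25 in WT, and neither passed alone (edgeR adjusted p = 0.342 and 0.0715). The difference of these effects was 0.14 ± 0.42, with adjusted p = 0.999. In the authors' deposited table, 78 of 9969 genes had an adjusted p under 0.05 in WT LZ against WT DZ. Eif2ak3 was the only member among them (log2 fold change -1.12, adjusted p = 0.00955), and no member passed in the authors' other comparisons. Between 7 and 15 UMIs stood behind the level of Eif2ak3 in each SykY317F LZ library. The averaged call was lost without SykY317F DZ replicate 1 (adjusted p = 0.0569), without SykY317F LZ replicate 1 (0.0531) and without both libraries with the fewest UMIs, SykY317F LZ replicates 2 and 4 (log2 fold change -1.04, adjusted p = 0.134).

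The base composition of the measured transcripts varied between libraries, which touches Eif2ak3 because the last 500 bases of its transcript hold 32.2% G and C, against a median of 44.6% over all genes. Across 7724 genes, the Spearman correlation between this share and a library's deviation from the mean of all libraries was between -0.096 and 0.316 in SykY317F LZ, between -0.401 and 0.070 in SykY317F DZ, between -0.463 and 0.462 in WT LZ and between -0.583 and 0.352 in WT DZ. Genes are not independent replicates, and these correlations are descriptions. With each library's trend removed, the averaged effect on Eif2ak3 was -0.76 ± 0.21 and no longer passed (edgeR adjusted p = 0.0704). In the same averaged comparison all 7 myeloid markers tested and 2 of 3 plasma cell markers were on the lower side in LZ, while 3 of 4 T cell markers were on the higher side. The genotypes differed in this. All 7 myeloid markers were lower in LZ in SykY317F (median -2.49), and 4 of 7 in WT (-0.26). T cell markers were higher in LZ for 1 of 4 in SykY317F (median -0.90) and 4 of 4 in WT (1.23). Plasma cell markers were lower for 2 of 3 in each genotype. Summed myeloid markers ran from 464 to 495 CPM in SykY317F LZ, 759 to 1117 CPM in SykY317F DZ, 522 to 728 CPM in WT LZ and 386 to 1095 CPM in WT DZ, with no gene of the list at 0 in any group. Summed plasma cell markers ran from 310 to 715 CPM in SykY317F LZ, 441 to 910 CPM in SykY317F DZ, 218 to 573 CPM in WT LZ and 267 to 1228 CPM in WT DZ, and Sdc1 was at 0 in SykY317F LZ. Summed T cell markers ran from 203 to 257 CPM in SykY317F LZ, 191 to 296 CPM in SykY317F DZ, 166 to 295 CPM in WT LZ and 93.2 to 188 CPM in WT DZ, and Icos was at 0 in SykY317F LZ. The part of these markers in the Eif2ak3 result was not tested, and in pools of cells fewer cells of a type and less RNA per cell cannot be told apart.

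The bases just before the RefSeq start of Eif2ak3 are shown because it was the 1 member called, beside those of Eif4g1 and Eif1b, the members with the next smallest p in each direction. Each runs 250 bases to the base before the start, on the plus strand of GRCm38.p6, at chr6:70844265-70844514 for Eif2ak3, chr16:20672477-20672726 for Eif4g1 and chr9:120492356-120492605 for Eif1b. In the GENCODE annotation Eif4g1 starts earlier, at 20668313, and so does Eif1b, at 120492232. The windows of Eif4g1 and Eif1b therefore lie inside those annotated genes, and the Eif2ak3 window lies before its gene. Capitals mark CCAAT, its reverse complement ATTGG, and CACGTG, the E-box that Myc and related factors bind, which reads the same on both strands.
Eif2ak3: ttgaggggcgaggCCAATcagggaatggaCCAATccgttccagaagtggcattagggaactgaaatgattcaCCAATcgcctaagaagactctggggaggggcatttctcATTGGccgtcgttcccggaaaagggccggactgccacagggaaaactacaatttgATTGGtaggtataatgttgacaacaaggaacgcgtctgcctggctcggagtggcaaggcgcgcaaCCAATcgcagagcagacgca
Eif4g1: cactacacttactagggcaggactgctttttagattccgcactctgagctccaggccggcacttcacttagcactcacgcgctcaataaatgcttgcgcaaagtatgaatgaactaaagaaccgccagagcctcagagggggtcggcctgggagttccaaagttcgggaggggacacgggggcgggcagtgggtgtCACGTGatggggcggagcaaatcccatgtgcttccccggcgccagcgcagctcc
Eif1b: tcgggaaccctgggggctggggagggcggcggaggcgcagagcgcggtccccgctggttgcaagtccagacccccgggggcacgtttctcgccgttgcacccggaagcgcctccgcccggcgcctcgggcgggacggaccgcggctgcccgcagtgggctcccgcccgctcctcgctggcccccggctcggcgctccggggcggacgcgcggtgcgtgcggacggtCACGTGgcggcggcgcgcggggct

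The Eif2ak3 window holds 6 CCAAT boxes on both strands together, a number reached by 18 of 27025 genes with a window (0.067%) and by 0.143% of the genes of the UMI table. It holds no E-box, and the Eif4g1 and Eif1b windows hold 1 each and no CCAAT box. The E-box was found in 9 of the 39 members with a window, against 10.4% of the genes of the UMI table and 6.86% of all genes. Those members were Eif1b, Eif3f, Eif3k, Eif4a1, Eif4e, Eif4g1, Eif4h, Eif5a and Eif5a2, and both zone directions occurred among them. The ETS motif CCGGAAG was in 12 of 39 members, against 17.9% of the genes of the UMI table. CCAAT was in 14 of 39, against 41.2%. The composite ATF4 motif TGATGCAA, the cAMP response element TGACGTCA and the ER stress element, which contains CCAAT, were in 0 of 39, against 0.612%, 3.19% and 0.156% of the genes of the UMI table. All were searched on both strands, and a match is a description of letters in this window.

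Of the other eIF2 kinases, Eif2ak4, which encodes the amino acid sensor GCN2, was weakly detected. It had 9.0, 0.0 and 12.5 CPM in SykY317F LZ and 19.6, 28.3 and 8.3 CPM in SykY317F DZ. In WT it had 4.4, 10.9, 13.4 and 18.5 CPM in LZ and 14.2, 26.8, 18.7 and 11.9 CPM in DZ. LZ and DZ overlapped in both genotypes, and LZ averaged over the genotypes stood at 49.9% of DZ, which did not pass (SE 0.46 on the log2 scale; edgeR adjusted p = 0.316). Eif2ak1, the haem-regulated kinase, and Eif2ak2, the double-stranded RNA sensor PKR, were at 0.04 ± 0.21 and -0.15 ± 0.34 in the same comparison.

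**Figure D2:**
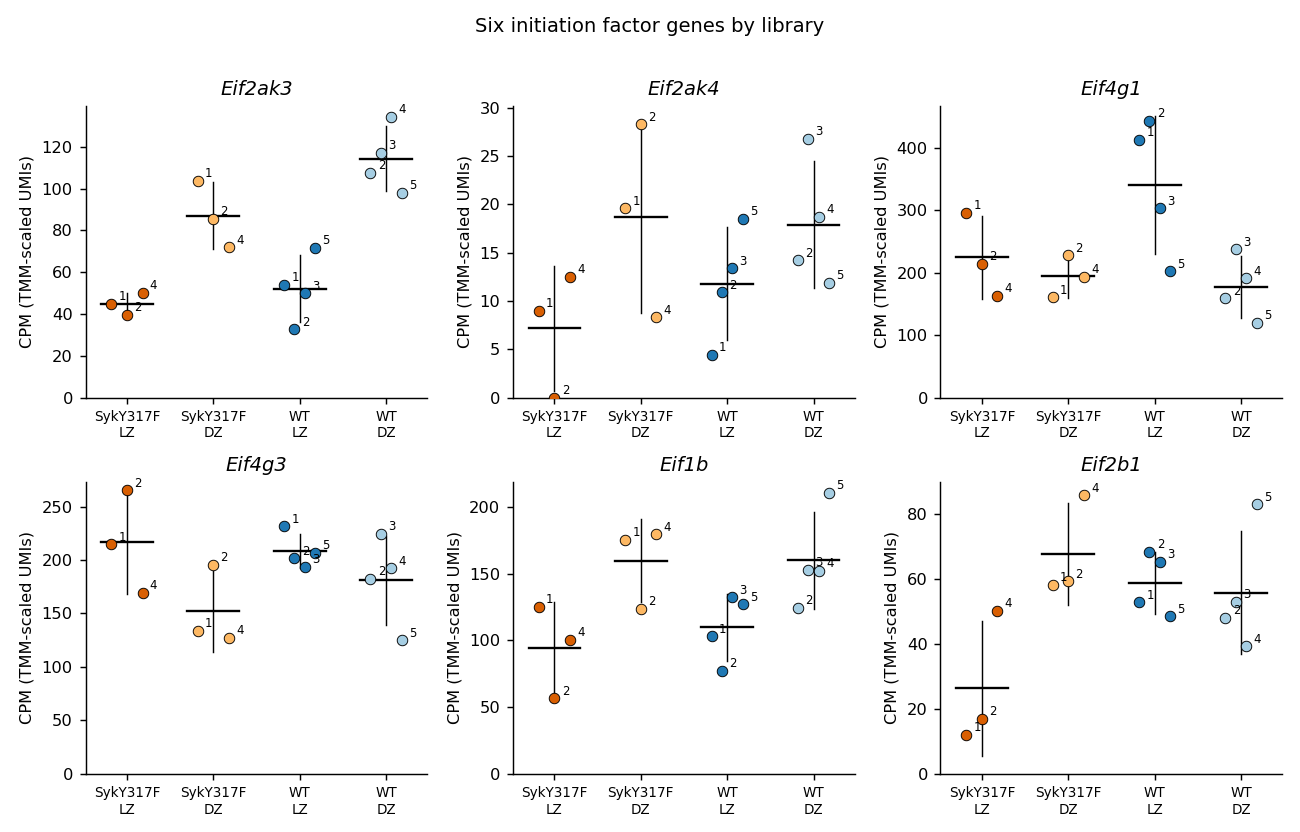
CPM of 6 members in each library, with the replicate number beside the point, a bar for the group mean and a line for ± 1 SD, for SykY317F LZ, SykY317F DZ, WT LZ and WT DZ. Eif2ak3 lies at 71.6 CPM or less in every LZ library and at 71.9 CPM or more in every DZ library, while the zones overlap for Eif2ak4 and Eif4g3.

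Among the genes that deliver the initiator tRNA, Eif2s3x, the gamma subunit of eIF2 that binds GTP and the tRNA, had an averaged zone effect of 0.14 ± 0.31 on the log2 scale. Eif2a, which encodes a separate factor that can deliver the initiator tRNA without eIF2, was at 98.5, 39.5 and 69.0 CPM in SykY317F LZ and 50.1, 64.6 and 44.2 CPM in SykY317F DZ. In WT it was at 20.8, 44.5, 48.0 and 51.4 CPM in LZ and 49.2, 123.1, 124.6 and 15.7 CPM in DZ. The fitted effect was 0.41 ± 0.63 in SykY317F and -0.92 ± 0.49 in WT, the groups overlapped, and the difference of 1.33 ± 0.80 did not pass (edgeR adjusted p = 0.999).

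Eif2b1, the alpha subunit of eIF2B that senses phosphorylated eIF2, had the smallest p of the members for a difference between the genotypes in their zone effects. It was at 11.9, 16.9 and 50.2 CPM in SykY317F LZ, against 58.1, 59.2 and 85.7 CPM in SykY317F DZ. In WT it was at 52.7, 68.2, 65.3 and 48.5 CPM in LZ, against 47.9, 53.0, 39.2 and 82.9 CPM in DZ. SykY317F LZ lay below SykY317F DZ in every library, and the WT zones overlapped. The zone effect was -1.48 ± 0.47 in SykY317F and 0.05 ± 0.31 in WT, and the difference of -1.53 ± 0.56 did not pass (edgeR adjusted p = 0.991; unadjusted p = 0.0127).

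Only 3 to 8 UMIs of Eif2b1 were counted per SykY317F LZ library. The difference was -2.31 ± 0.57 without SykY317F LZ replicate 4, again without passing, and -2.54 without replicates 2 and 4. Both runs left out replicate 4, which had the highest level of the SykY317F LZ libraries, and kept replicate 1, which had the lowest. The other 4 eIF2B subunits, Eif2b2 to Eif2b5, had averaged zone effects between -0.43 and 0.17, and none passed.

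The 12 eIF3 genes tested encode subunits of the large scaffold that holds the small ribosomal subunit, and they made up the biggest class. None passed in any comparison, and 10 were on the lower and 2 on the higher side in LZ averaged over the genotypes, with a median log2 fold change of -0.19. Eif3a, the largest core subunit, was at -0.21 ± 0.18. Eif3d, a subunit that can itself bind the cap, was at 0.26 ± 0.15 and Eif3k, a peripheral subunit, at 0.12 ± 0.17. Eif3m, a subunit of the core, was at -0.29 ± 0.29. In SykY317F the zones did not overlap for Eif3d, with 322, 277 and 289 CPM in LZ against 243, 236 and 238 CPM in DZ, yet its effect of 0.31 ± 0.23 did not pass (edgeR adjusted p = 0.682).

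In the eIF4 class, Eif4g1, the main eIF4G scaffold, had the largest positive zone effect of the members in WT. It was at 412.5, 443.8, 303.3 and 202.1 CPM in WT LZ, against 159.2, 237.2, 191.3 and 119.9 CPM in WT DZ. In SykY317F it was at 295.5, 214.5 and 163.1 CPM in LZ, against 160.4, 228.0 and 193.5 CPM in DZ. WT LZ replicate 5 fell inside the range of WT DZ, and the SykY317F zones overlapped. The effect was 0.94 ± 0.27 on the log2 scale in WT, 0.23 ± 0.32 in SykY317F and 0.59 ± 0.21 averaged, and none of them passed (edgeR adjusted p = 0.181 in WT and when averaged). The difference of the zone effects, SykY317F minus WT, was -0.71 ± 0.42 and did not pass either (edgeR adjusted p = 0.999). The last 500 transcript bases of Eif4g1 hold 59.2% G and C, and with the trends removed the WT effect was 0.62 ± 0.27.

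Eif4g3, a second eIF4G, was at 217 ± 48.0 CPM in SykY317F LZ and 152 ± 37.9 CPM in SykY317F DZ, against 208 ± 16.2 CPM in WT LZ and 181 ± 41.5 CPM in WT DZ (SD, n = 3, 3, 4 and 4). Its averaged effect was 0.35 ± 0.17 (edgeR adjusted p = 0.364). Eif4a1, the main helicase subunit, was at 0.17 ± 0.20. Eif4e, the cap binding protein, had 0 to 25 UMIs per library, and its averaged effect of -0.21 ± 0.69 was not resolved at this depth. Eif4e2, a cap binding protein that acts as a repressor, was at -0.19 ± 0.19. Of the binding proteins that hold eIF4E back, Eif4ebp1 was at -0.26 ± 0.22, Eif4ebp2 at -0.25 ± 0.17 and Eif4ebp3 at 0.32 ± 0.21, and none passed.

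In the scanning group, Eif1b, a close relative of the start codon selection factor Eif1, was at 125.4, 56.5 and 100.4 CPM in SykY317F LZ, against 175.7, 123.8 and 179.7 CPM in SykY317F DZ. In WT it was at 103.1, 77.1, 132.4 and 127.0 CPM in LZ, against 124.3, 152.9, 152.2 and 211.0 CPM in DZ. The zones overlapped in each genotype, and the averaged effect was -0.63 ± 0.20 (edgeR adjusted p = 0.136). Eif1 itself was at 0.07 ± 0.21. Eif1ax, the X-linked form of eIF1A, was at 153 ± 28.6 CPM in WT LZ and 242 ± 76.5 CPM in WT DZ (SD, n = 4 each), an effect of -0.66 ± 0.23 (edgeR adjusted p = 0.357) that was -0.40 ± 0.22 without WT DZ replicate 5. Eif5a, the hypusinated factor that also acts in elongation, was at -0.08 ± 0.16 and Eif6, which keeps the ribosomal subunits apart, at -0.25 ± 0.21.

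Within the genotypes, 0 of 46 members passed in SykY317F, where 0.0375% of all genes did, and 0 of 46 in WT, where 0.188% did. On simulated data the test missed most planted 2-fold changes in every comparison, so 0 members called does not show that such changes were absent. At an unadjusted p under 0.05 there were 4 members in SykY317F and 4 in WT, against 10.3% and 8.48% of all genes. DESeq2's Wald test called 0 members in SykY317F and 1 in WT, Eif2ak3 (adjusted p = 0.00712). Over all 7999 genes the same test called 42 in SykY317F and 97 in WT. In SykY317F 18 members were on the higher and 28 on the lower side in LZ (median -0.12, beside -0.04 over all genes), and in WT 13 and 33 (median -0.14, beside -0.02), where 46.7% and 48.3% of all genes were on the higher side.

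Without a test, the zones did not overlap for 6 members in SykY317F, where 15.1% of all genes did not. Of these Eif3d was higher in LZ (6.56% of all genes) and Eif2ak3, Eif2b1, Eif3c, Eif3f and Eif5a were lower (8.5%). In WT they did not overlap for 1 member, Eif2ak3, which was lower (5.76% of all genes, 2.88% lower and 2.89% higher).

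The genotypes were compared within each zone. SykY317F against WT, 0 of 46 members passed in LZ and 0 in DZ, and in each zone 0% of all 7999 genes did (edgeR). At an unadjusted p under 0.05 there were 3 members in LZ and 1 in DZ, against 9.81% and 3.81% of all genes. DESeq2's Wald test called 0 members in both zones. Over all 7999 genes it called 43 in LZ and 2 in DZ. The median log2 fold change of the members was -0.04 in LZ (0.03 with GC trends removed) and -0.17 in DZ, beside -0.06 and -0.04 over all genes. In LZ 22 members were on the higher and 24 on the lower side, and in DZ 14 were higher and 32 lower, where 46% and 45% of all genes were higher. In DZ all 4 T cell markers and 6 of 7 myeloid markers were on the higher side in SykY317F, with medians of 1.90 and 0.72. In LZ 1 of 4 and 1 of 7 were, with medians of -0.23 and -0.77. None of these markers passed, and their part in the values of the members was not tested. The difference of the zone effects had 0 members past the threshold, where 0% of all genes passed, and 1, Eif2b1, at an unadjusted p under 0.05, against 4.8% of all genes. Its median over the members was 0.09 (-0.07 when scaled by library size alone), with 24 above 0 (46.3% of all genes).

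**Figure D3:**
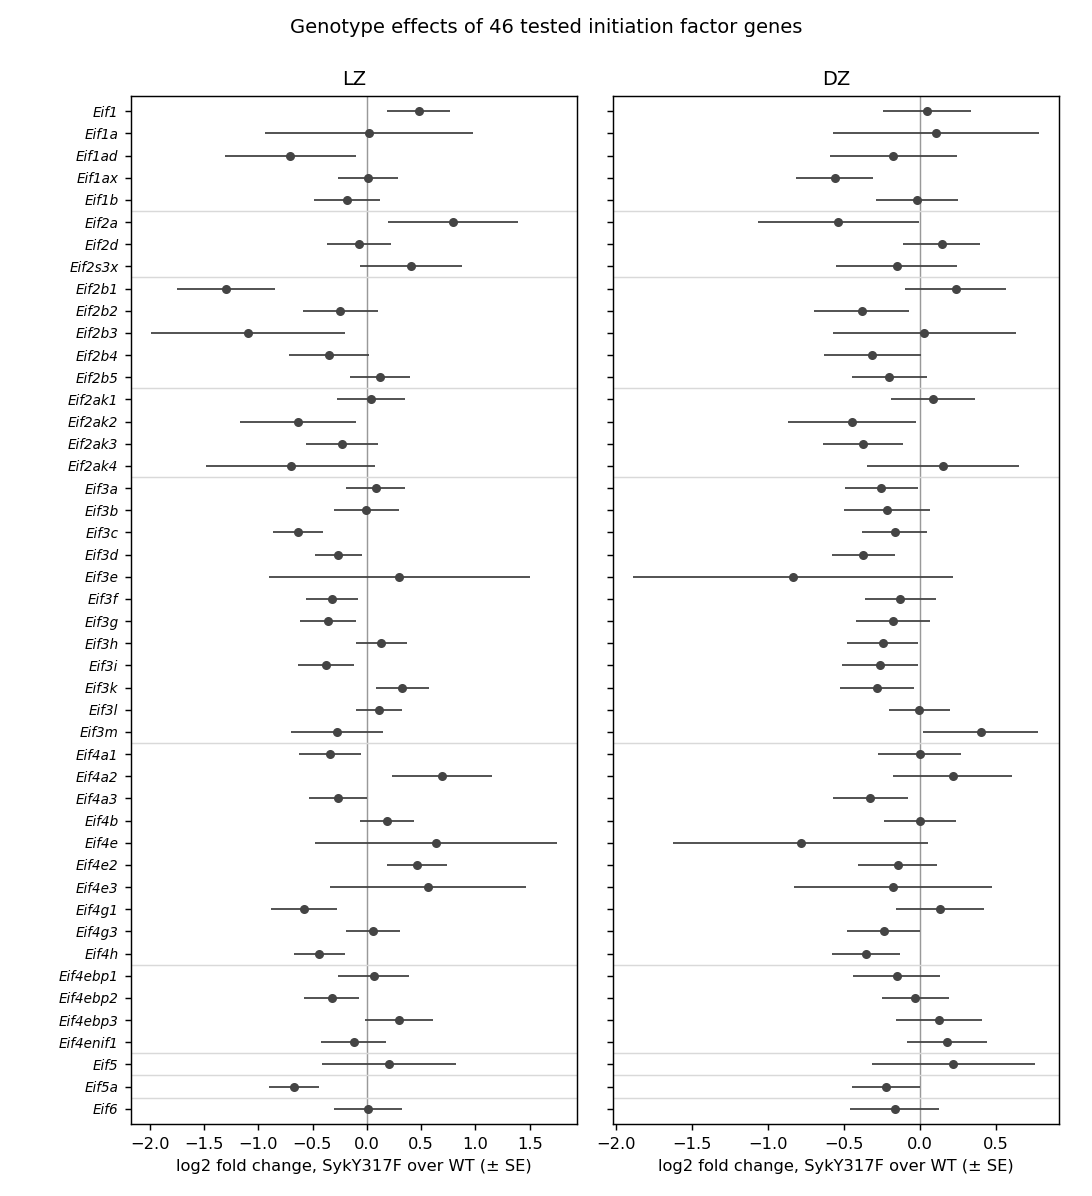
Log2 fold change of SykY317F over WT for each of the 46 members tested, with its standard error, in LZ (left) and in DZ (right). In LZ, Eif5a lies at -0.67 and Eif2b1 at -1.29, and no member passed the test in either zone.

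In LZ the members with the smallest p were Eif5a, Eif2b1 and Eif3c, a core eIF3 subunit. Eif5a was at 1122.3, 688.7 and 1060.0 CPM in SykY317F LZ, against 1453.6, 1491.7, 1788.9 and 1358.5 CPM in WT LZ. Eif3c was at 247.7, 237.1 and 181.9 CPM in SykY317F LZ, against 328.0, 334.1, 391.6 and 334.9 CPM in WT LZ. Both genes were lower in every SykY317F LZ library, and the fitted effects were -0.67 ± 0.23 for Eif5a and -0.63 ± 0.23 for Eif3c (edgeR adjusted p = 0.336 and 0.365). Eif2b1, with the levels given above, was at -1.29 ± 0.45 (edgeR adjusted p = 0.338). The SykY317F LZ libraries also had the fewest UMIs of all groups, and the part of depth in these values was not tested.

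The genotypes did not overlap in LZ for 4 members (10.5% of all genes). Of these Eif4e2 was higher in SykY317F (3.84% of all genes) and Eif3c, Eif3f and Eif5a were lower (6.66%). On the higher side, Eif4e2 had an effect of 0.46 ± 0.28 and Eif1 of 0.48 ± 0.29 (edgeR adjusted p = 0.629 and 0.634). In DZ they did not overlap for 2 members, both lower in SykY317F (5.88% of all genes, 2.31% lower and 3.56% higher). Those were Eif3d, at -0.37 ± 0.21, and Eif4h, a helicase cofactor, at -0.35 ± 0.22. Eif1ax had the smallest p in DZ, with an effect of -0.56 ± 0.26 (edgeR adjusted p near 1; -0.28 ± 0.24 without WT DZ replicate 5). Eif3m was the member of smallest p on the higher side in DZ, at 0.40 ± 0.38.

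Within groups, 4 members chosen after their values were seen varied most against their counting depth or moved together in 1 library. Eif3e, an eIF3 subunit, was at 38.8, 169.4 and 119.2 CPM in SykY317F LZ, 18.1, 278.5 and 113.3 CPM in SykY317F DZ, 20.8, 68.2, 13.4 and 215.9 CPM in WT LZ, and 192.9, 399.0, 349.7 and 45.2 CPM in WT DZ. Its SD within groups was 1.57 on the log2 CPM scale, and of the 1695 genes with a mean count within 2-fold of it 99.6% had a lower SD. All 4 groups therefore overlapped widely, and the WT zone effect of -1.55 ± 0.98 did not pass (edgeR adjusted p = 0.717). The annotation holds 4 processed pseudogenes under the older name of Eif3e, Eif3s6, so its count is uncertain where the authors' counting could split reads between copies.

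**Figure D4:**
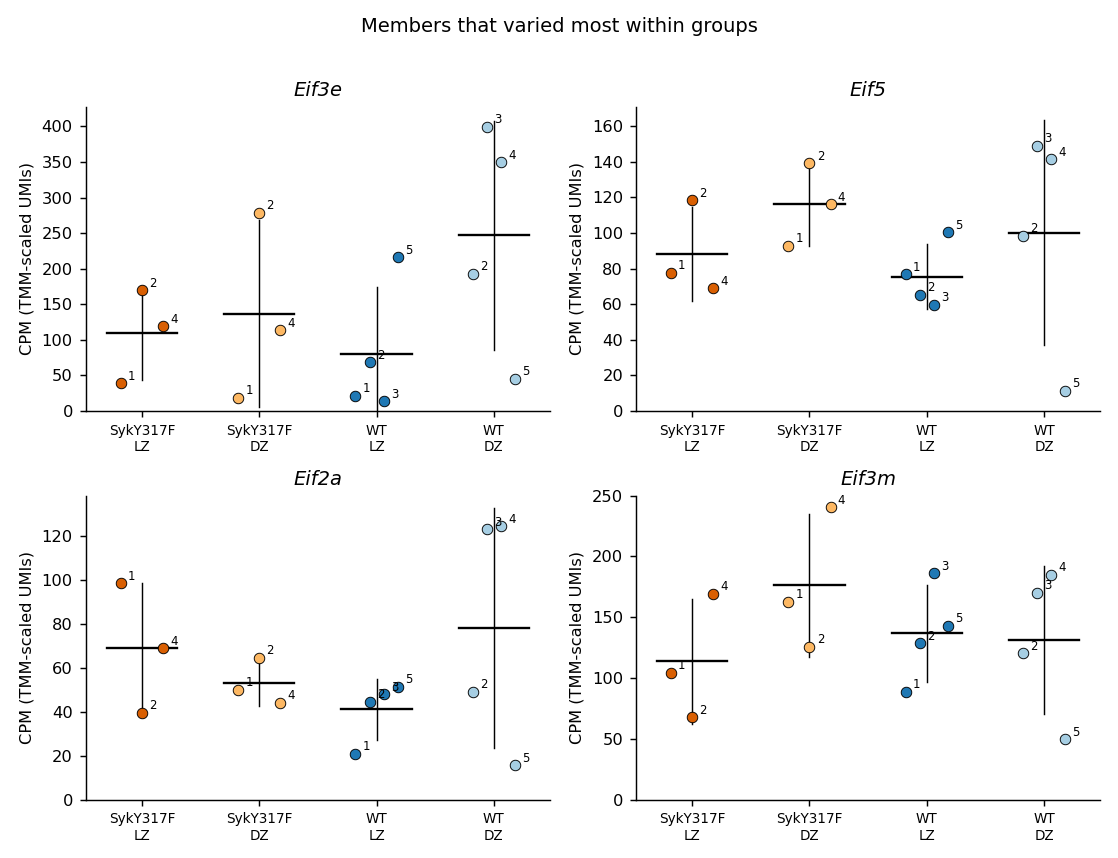
CPM of Eif3e, Eif5, Eif2a and Eif3m in each library, with replicate numbers, group means as bars and ± 1 SD as lines. WT DZ replicate 5 lies below the other WT DZ libraries for all 4 genes, for example at 11.3 CPM for Eif5 where the others have 98.4 to 149.2 CPM.

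WT DZ replicate 5 stood apart from the other WT DZ libraries for several members. On the log2 CPM scale it deviated from its group mean by -2.45 for Eif5, which triggers GTP hydrolysis by eIF2 at the start codon, by -1.79 for Eif2a, -1.27 for Eif1a and -1.21 for Eif3m. WT DZ replicate 3 deviated by 1.04, 1.02, 0.88 and 0.53 for the same genes. In the other direction, WT DZ replicate 5 deviated by 0.76 for Eif6 and 0.61 for Eif4e2. The last 500 transcript bases hold 37.6% G and C in Eif5 and in Eif3e, 34.2% in Eif2a and 35.8% in Eif3m, 40.4% in Eif1a, 54.8% in Eif6 and 46% in Eif4e2, against the median of 44.6% over all genes. Members with a low share also deviated upwards in WT DZ replicate 5, by 0.59 for Eif1ax (36.0%) and 0.48 for Eif3f (39.0%). Over 7724 genes, the Spearman correlation of this share with the deviation from the group was 0.532 in WT DZ replicate 5, -0.520 in replicate 3 and -0.566 in replicate 4. The part of base composition in these deviations was not tested.

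**Figure D5:**
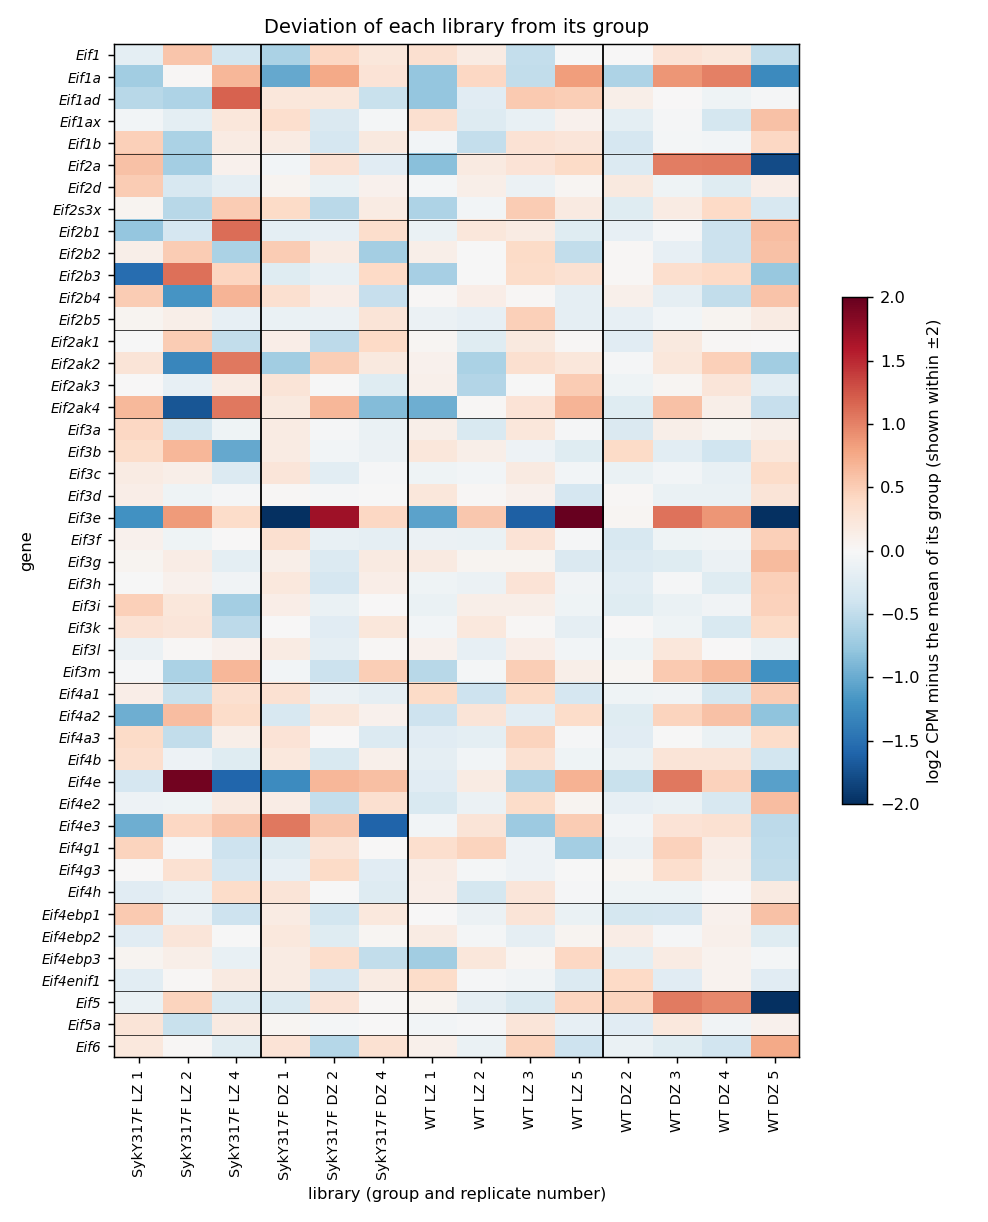
Deviation of each library from its group mean, in log2 CPM, for the 46 members tested (rows, by role) in the 14 libraries (columns, SykY317F LZ, SykY317F DZ, WT LZ and WT DZ), with red above and blue below the mean. Eif3e, Eif5 and Eif2a are dark blue in WT DZ replicate 5, at -1.79 or below, while Eif3l and Eif3d stay pale in all libraries.

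The steadiest members were Eif3l, with an SD within groups of 0.15 on the log2 CPM scale, and Eif3d, with 0.17. The median over the 46 members was 0.36.

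Genes around the initiation factors were compared in the same fit. Of 17 genes tested of the integrated stress response, which eIF2 phosphorylation sets off, 1 was called higher in LZ averaged over the genotypes and 0 lower. Over all genes 0.55% were called higher and 0.875% lower. The gene called was Ddit4, an inhibitor of mTORC1, and the others of the list, Atf4 among them, did not pass. Ddit4 was at 265.6, 146.8 and 225.8 CPM in SykY317F LZ, against 97.3, 120.4 and 141.0 CPM in SykY317F DZ. In WT it was at 323.6, 207.6, 111.3 and 230.4 CPM in LZ, against 126.9, 53.0, 66.7 and 77.2 CPM in DZ. Its averaged effect was 1.16 ± 0.24 (edgeR adjusted p = 0.0169), the SykY317F zones did not overlap, and WT LZ replicate 3 lay inside the WT DZ range. Gcn1l1, a partner of GCN2, was at 3.0, 5.6 and 37.6 CPM in SykY317F LZ, against 0.0, 2.0 and 0.0 CPM in SykY317F DZ. In WT it was at 11, 10.9, 0.0 and 1.2 CPM in LZ, against 1.3, 3.7, 0.9 and 1.3 CPM in DZ. These levels rest on few UMIs, and its averaged effect of 2.66 ± 0.86 did not pass (edgeR adjusted p = 0.140). The list's median was -0.05, with 7 members on the higher and 10 on the lower side.

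Of 23 genes tested of other initiation factors and their helpers, none passed, and 7 were on the higher and 16 on the lower side in LZ, with a median of -0.22. Paip2, which represses translation through the poly(A) binding protein, was at -0.68 ± 0.26, and Pabpc4, a poly(A) binding protein, at 0.59 ± 0.25. Of 14 elongation and release factors none passed (7 higher, 7 lower, median 0.01), with Eef1a1, which brings aminoacyl tRNA to the ribosome, at 0.57 ± 0.22 and its mitochondrial counterpart Tufm at 0.43 ± 0.22. Of 21 aminoacyl tRNA synthetases none passed (9 higher, 12 lower, median -0.05), with Iars, the isoleucine enzyme, at -0.79 ± 0.27 and Wars, the tryptophan enzyme, at 0.48 ± 0.20. In each genotype comparison 0 genes of these 4 lists passed.

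Counts of some members may hold reads of other loci. In the annotation, 16 members overlap another gene on the same strand and 15 a gene on the other strand, Eif2ak3 with Gm23346 and Gm43292, Eif2a with 6720482G16Rik and Serp1, and Eif1b with D830035M03Rik among them. Named processed pseudogenes exist for Eif1, Eif2s3x and the Eif4a family too, and another is named Eif5al3-ps, a symbol that starts like Eif5a. Whether the authors' counting used strand is not given in the sources used here.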

How the data were processed

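Pools of sorted LZ and DZ GC B cells were profiled in 14 libraries. The authors deposited UMI counts and read counts, whole numbers per gene symbol that are not normalized. They also deposited log2 fold changes and adjusted p-values of their own, used here only where named. Build mm10 and the tools STAR 2.4.2a, cutadapt, HTSeq, DESeq and DESeq2 are named, without order, in the submitters' processing notes. Another 28 per-sample columns of normalised and regularised values were not used.

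Groups follow the genotype and zone labels. UMI counts were filtered with filterByExpr (7999 of 9969 genes) and scaled by TMM. They were fitted with edgeR 4.0.16 (limma 3.58.1, R 4.3.3, quasi-likelihood, robust) in a model of all 4 groups. Run first on simulated data with equally many planted 2-fold and 4-fold changes, it missed most 2-fold changes in every comparison. It recovered 4 and 59 for the SykY317F zones, 21 and 80 for the WT zones and 37 and 87 averaged. For the genotypes it recovered 9 and 58 in LZ and 14 and 75 in DZ, and for the difference of zone effects 0 and 27. Standard errors are the estimate divided by the square root of F, and p-values were adjusted by Benjamini-Hochberg over all 7999 genes (threshold 0.05). The zone effect was taken in each genotype and averaged over the genotypes with equal weight. CPM are UMIs over the TMM-scaled library total, and the log2 CPM scale uses a prior count of 2. Alternatives were DESeq2 size factors, library size alone, DESeq2 1.42.0's Wald test, other filters, read counts, a replicate block and leaving out libraries. Removal of GC trends, and a fit without the pair of libraries that had the fewest UMIs, were chosen after seeing the data.

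Named members are those past the threshold, those with the smallest p in each direction (4 for the averaged zone effect, 2 elsewhere) and a fixed set of core factors, and 2 genes of each related list. Members and lists were chosen with earlier results of these data known. Members named only for groups that do not overlap, for their spread within groups, for a motif or to complete a class were chosen after their values were seen. Positions come from the GENCODE annotation of GRCm38, the assembly of mm10, and the sequences before gene starts from RefSeq (GRCm38.p6).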

Additional observations from a re-analysis of the deposited data

Results flagged for a closer look

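Among 44 checks (22 named members in the groups WT LZ and WT DZ of 4 libraries), 3 found a library far from the others, and chance flags about 1 in 20 such groups. Eif3a in WT DZ replicate 2 was at 82.8 CPM, where the other WT DZ libraries ran from 106.8 to 111.2 CPM. Eif4e2 in WT DZ replicate 5 was at 342 CPM, where the others ran from 179 to 204 CPM. Eif6 in the same library was at 441 CPM, where the others ran from 199 to 238 CPM. Without that library, the WT zone effect was -0.21 ± 0.23 for Eif4e2 and 0.02 ± 0.25 for Eif6, against -0.49 ± 0.24 and -0.33 ± 0.27 with it.

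Eif2s1, the alpha subunit of eIF2 that the eIF2 kinases phosphorylate, has no row in the UMI table, but the table of read counts, used only as an alternative, holds 31 reads of it. Of these, 16 were in SykY317F DZ replicate 2, 4 in WT LZ replicate 5, 9 in WT DZ replicate 3 and 1 each in WT DZ replicates 2 and 4, and the other 9 libraries held 0.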

How the results depend on the processing

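The averaged zone comparison called 1 member and every other comparison 0. With GC trends removed or without both libraries with the fewest UMIs the averaged count was 0, and over leaving out each library it ran from 0 to 1. Of all genes, the averaged comparison called 114 of 7999, 129 of 7999 with GC trends removed and 17 of 8749 without that pair. The member count was 0 without SykY317F DZ replicate 1 (42 of 8260 genes) and without SykY317F LZ replicate 1 (45 of 8409). In WT the count of members was 1 by DESeq2's Wald test (97 of 7999 genes). It ran from 0 to 1 over leaving out each library, with 1 without WT LZ replicate 5 (17 of 7848). In the other 4 comparisons no alternative run called a member. Over all genes these runs called at most 54 of 9495, for the genotypes in LZ by read counts. Called or not, Eif2ak3 was lower in LZ under every alternative, with averaged log2 fold changes from -1.16 to -0.76. The median of the members turned sign in the difference of zone effects (in 5 alternatives, lowest -0.07 by library size alone, where all genes had -0.19) and for the genotypes in LZ (0.03 with GC trends removed). Scaling by library size alone shifted the median of all genes for the SykY317F zones to -0.19, against -0.04 with TMM, and that of the members to -0.26, against -0.12. The labels give no meaning to the replicate numbers, and not every pair that shares one deviated together (3 of 6 same-genotype pairs correlated above 0.1, with a lowest r of -0.555, and 5 of 8 pairs across genotypes, with a median of 0.146 against -0.05 for different numbers), and with a replicate block Eif2ak3 had an averaged effect of -1.09 (edgeR adjusted p = 0.0255), with 1 member called in the averaged comparison and 0 in the others. Of 3062 recomputed values of single members, 156 changed sign, all of them uncalled, and read counts moved 30 of 132 by more than their standard error. The comparisons that need SykY317F LZ could not be fitted without the 4 libraries under 400000 UMIs. Depth limits what can be seen of members with few UMIs in SykY317F LZ.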
